A study of Mus musculus with 6 samples.

Results

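The genes of sterol and fatty acid synthesis are described here in macrophages with and without AEG-1. They are 39 listed genes, of 46983 in the counts table, that make cholesterol, fatty acids and triglycerides and are known as targets or controllers of the sterol regulatory element binding proteins (SREBPs). The list was set by gene name, and all 39 genes were found in the table and passed the filter on low counts. The cells were macrophages grown in culture from marrow progenitors (bone marrow derived macrophages), and their total RNA was sequenced. Both groups were untreated C57BL/6 cells from femur marrow, kept for 7 days with 20% L929 conditioned medium, a source of macrophage growth factor, and 10% serum. One group was wild-type (WT) and the other came from AEG-1 knockout (AEG-1 KO) mice, which lack astrocyte elevated gene-1, the protein of the gene Mtdh. Each group had 3 libraries. Neither the deleted part of Mtdh nor the number of animals is stated in the labels, so the spread behind each p-value may be technical rather than between animals.

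Cells sense cholesterol in the membrane of the endoplasmic reticulum. When it is scarce, the escort protein SCAP carries SREBP to the Golgi, where proteases release the part that enters the nucleus and switches on genes of lipid synthesis. When it is plentiful, INSIG proteins hold SCAP and SREBP back. SREBP-2 is best known for cholesterol genes and its relatives for fatty acid genes, and the pathway feeds membranes, lipid droplets and signalling lipids in macrophages. SREBPs act together with the factors NF-Y and Sp1 on promoters.

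The short promoter stretches below show sequence features that were searched for in these genes and that the list did not use. RefSeq promoters (GRCm38.p6, from 250 bases before to 50 bases after a gene's start) were at hand for 30 of the 39 genes. Fdps, Fdft1, Sqle, Stard4, Scd1, Scd2, Fads1, Dgat1 and Dgat2 were not in the promoter table. Both strands were searched. The sterol regulatory element, searched as TCACNCCAC, lay in 1 of the 30 genes (3.33%), against 1.43% of 9775 tested protein-coding genes with a promoter. That gene was Hmgcs1, and its element is shown in capitals, 5′ to 3′ on the strand of the gene, at chr13:119690205-119690231 (plus strand).
Hmgcs1: gtcaccgtcTCACCCCACttcccaggt

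The NF-Y box, searched as CCAAT, was found in 24 of the 30 genes (80%), against 43.1% of the tested coding genes. The Sp1 box, searched as GGGCGG, was found in 24 genes (80%) as well, against 67.3%. Shown next is the NF-Y box nearest the start, in capitals, for the 5 genes with a box and the smallest p in the comparison described below. ATTGG is the same box on the other strand. The stretches lie at chr2:155517961-155517983 (plus strand) for Acss2, chr5:4104713-4104735 (minus strand) for Cyp51, chr8:64733620-64733642 (minus strand) for Msmo1, chr10:76531534-76531556 (plus strand) for Lss and chr11:120824593-120824615 (minus strand) for Fasn.
Acss2: ctacccactATTGGatgcctaga
Cyp51: tgtccgccaCCAATctggtcctg
Msmo1: tggggcggaCCAATtacgacagg
Lss: gatgctctgATTGGccgagctcg
Fasn: cggtgtccaATTGGtttcgatgt
A match is a description of letters and no evidence of binding, and the absence of a match says only that these letters are not in the window.

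Total counts ran from 42548170 to 58947230 per library, and the 39 genes had a median of 766 reads per gene and library. Expression is given as CPM, the counts divided by the TMM-scaled library size and expressed per 1e6 reads. Mtdh had 259, 254 and 273 CPM in WT, against 0.333, 0.517 and 0.335 CPM in AEG-1 KO, so every library carried the Mtdh level of its label. All 16 macrophage markers listed were measured, with 5 called higher, 2 lower and a summed level of 33547 to 35052 CPM in WT, against 34893 to 35368 CPM in AEG-1 KO. Csf1r, Mertk, Cd14, Mrc1 and Ctsb were the 5 called higher, and Adgre1 and Marco the 2 called lower. Marco dropped to 2257 CPM in AEG-1 KO from 3477 CPM in WT, while Ctsb rose from 10577 to 11946 CPM. The summed level thus hides changes of single macrophage markers. Lists of several other cell types held called markers too. For comparison, 6.35% of all genes tested were called in either direction. Of 10 tested monocyte and progenitor markers 4 were called higher and 0 lower. Their list summed to 180 to 199 CPM in WT, against 221 to 247 CPM in AEG-1 KO. Of 13 neutrophil markers 6 were called higher and 2 lower (519 to 524 and 564 to 607 CPM), and of 11 fibroblast and stromal markers 7 were called higher and 0 lower (13.7 to 17.6 and 23.6 to 26.5 CPM). Among 10 adipocyte markers, only Fabp4 and Pparg, which macrophages also express, passed the filter. Neither was called, Lep had 0 counts in all libraries, and the list summed to 31 to 33.2 CPM in WT, against 29.7 to 32.2 CPM in AEG-1 KO. Of 5 tested osteoclast markers 2 were called higher and 2 lower, and their list summed to 182 to 203 CPM in WT and to 152 to 164 CPM in AEG-1 KO. Of 5 endothelial markers 1, Pecam1, was called lower (85.6 to 89.6 and 73.6 to 77.5 CPM), and of 5 B cell markers 1, Pax5, higher (36.7 to 40 and 36.3 to 42 CPM, with Igll1 at 0 counts). The 1 T and NK cell marker tested was not called. The part of these other cells in the results below was not tested. In bulk RNA, fewer cells of a type and less RNA per cell cannot be told apart.

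The genes spanned a wide range of levels, and the order was led by fatty acid genes. Levels between genes are compared as CPM per kb of annotated exon. Elovl1, which lengthens saturated and monounsaturated very long chains, was highest, at 55.8 ± 3.55 CPM per kb in WT (SD, n = 3). Acly, which makes cytosolic acetyl-CoA from citrate, followed at 44.3 ± 0.579, Scd2, a stearoyl-CoA desaturase, at 31.5 ± 1.31 and Elovl5, an elongase of polyunsaturated chains, at 18.3 ± 0.443 CPM per kb. These 4 levels differed beyond their spread. Next came Fads1, the delta-5 desaturase, at 12.9 ± 0.526, and Hmgcs1, the cytosolic HMG-CoA synthase, at 12.1 ± 0.657 CPM per kb, which did not. Hmgcs1 and Ebp (11.4 ± 0.463 CPM per kb) led the cholesterol branch and did not differ beyond their spread. At the low end stood Dgat2, at 0.521 ± 0.0493, and Fads2, the delta-6 desaturase, at 0.1 ± 0.0239 CPM per kb. Fads2 had as few as 11 reads in a library, which makes it the least precise of the 39.

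**Figure D1:**
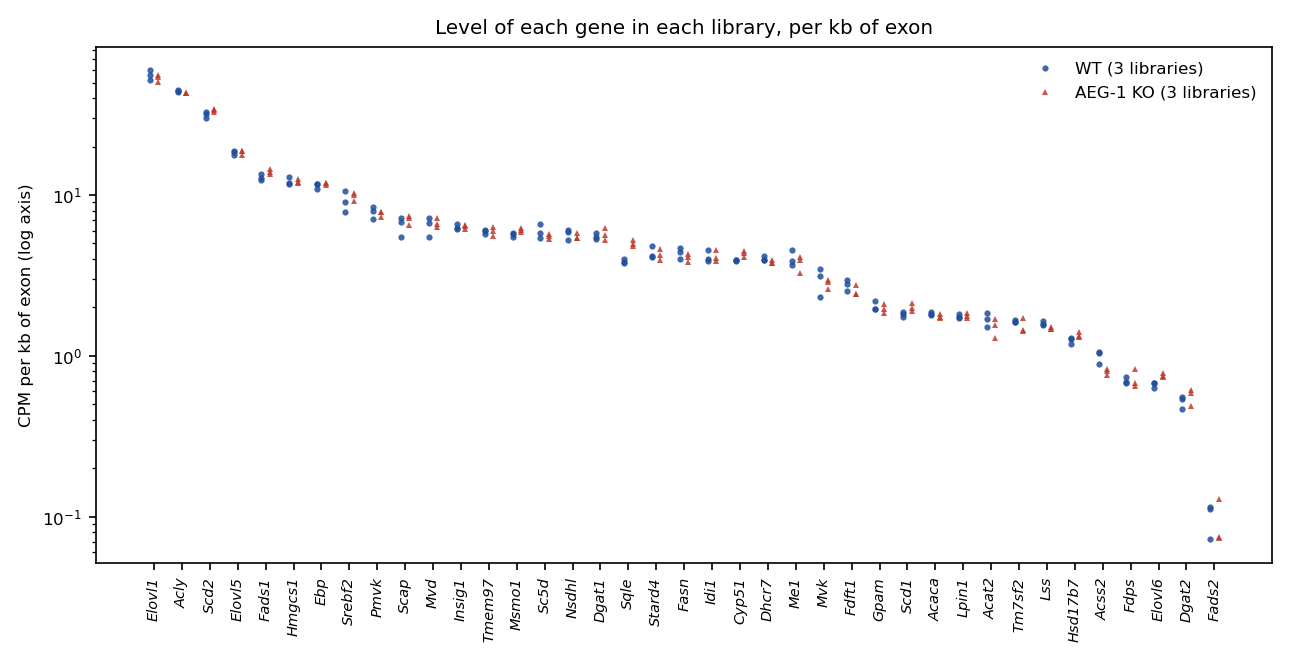
Level of each of the 39 genes in each library, as CPM per kb of exon on a log axis, for WT (blue circles) and AEG-1 KO (red triangles), ordered by the mean. Levels fall from 54.6 CPM per kb for Elovl1 to 0.0962 for Fads2, and the genotypes lie on top of each other for most genes.

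Setting AEG-1 KO against WT asks whether transcripts of lipid synthesis differ in untreated macrophages that lack AEG-1. Of the 39 genes, only Sqle passed the test, with a higher level in AEG-1 KO. With the edgeR quasi-likelihood test and Benjamini-Hochberg adjustment over 16115 genes, 1 of the 39 genes was called at an adjusted p of 0.05, where 6.35% of all genes tested were called. At an unadjusted p under 0.05 there were 3, namely Sqle, Acss2 and Cyp51. The log2 fold changes ran from -0.33 to 0.37 with a median of 0.00, against a median of 0.01 over all tested genes. They were above 0 in 21 genes and below 0 in 18, and with RLE scaling in 15 and 24. Besides Sqle, which DESeq2, limma-voom and the edgeR exact test called too, these tools called none of the 39 but Acss2.

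Most of the uncalled differences were bounded closely. The absolute log2 fold change was under 0.2 in 37 of the 39 genes (94.9%), where the share was 79.3% among the 13291 tested genes that averaged 1 CPM or more. The 95% interval of the log2 fold change lay within -0.5 and 0.5, or within 1.41-fold, for 36 of the 39 (92.3%), against 83.9% of the same 13291 genes. The exceptions were Acss2, Sqle, whose interval reached 0.50, and Fads2, with an interval from -0.83 to 0.65. The 13291 genes were not matched in level to the 39. These shares therefore do not show that the 39 differ less than other genes of like level. The 3 WT libraries and the 3 AEG-1 KO libraries did not overlap for 10 of the 39 genes, 7 higher (Sqle, Cyp51, Msmo1, Hsd17b7, Scd1, Scd2 and Elovl6) and 3 lower (Lss, Acly and Acss2). Over all tested genes 26.8% did not overlap, so that this share stood near the background.

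**Figure D2:**
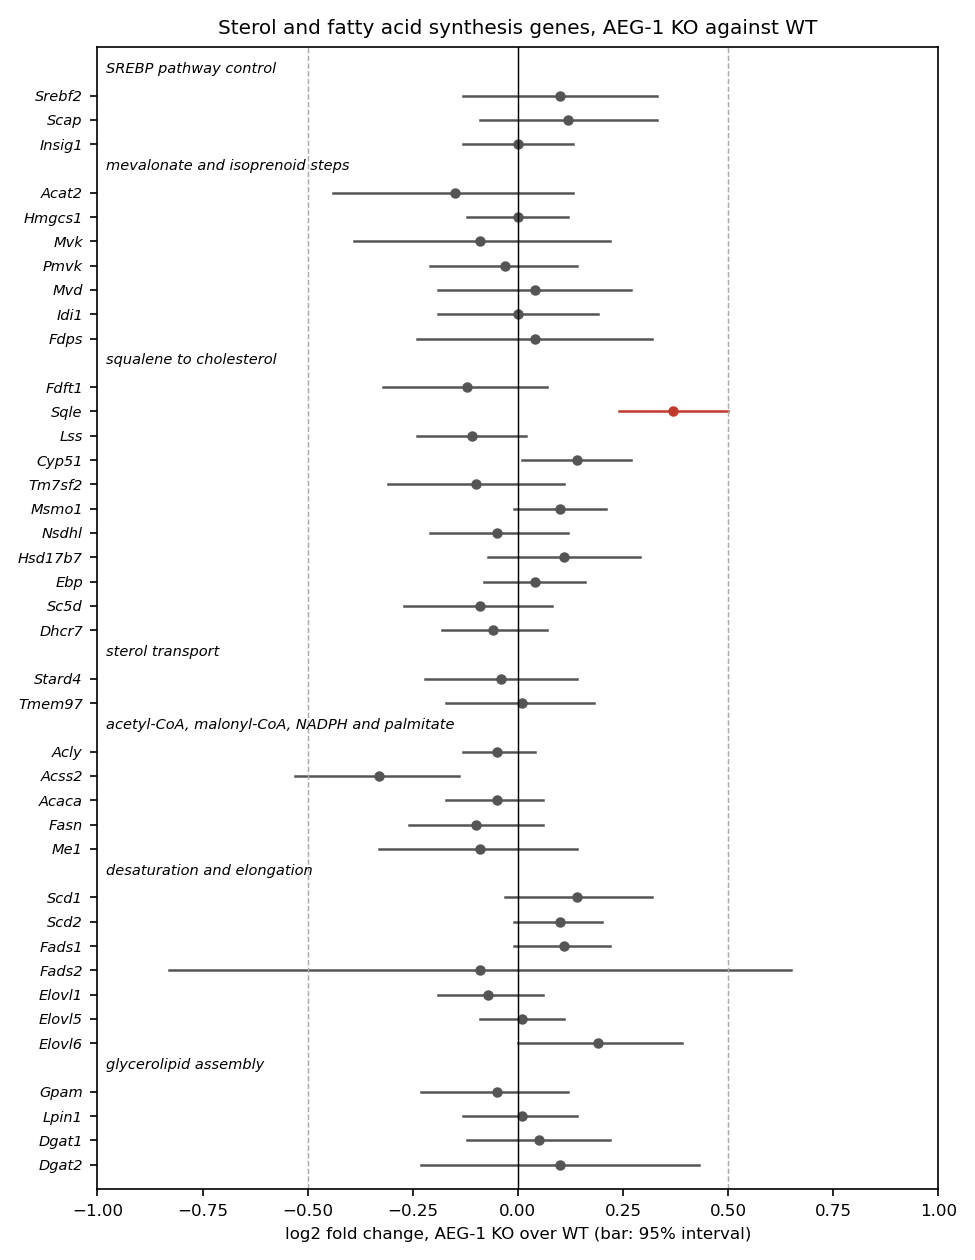
Log2 ratio of AEG-1 KO to WT for the 39 genes with the 95% interval from the edgeR fit, grouped by role, with Sqle, the gene past an adjusted p of 0.05, in red and dashed lines at -0.5 and 0.5. Points of the other genes lie between -0.33 and 0.19, and 36 intervals stay between the dashed lines.

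None of the 3 controllers of SREBP processing passed the test. Srebf2, which encodes SREBP-2, had 76.5, 64.8 and 55.9 CPM in WT replicates 1 to 3 and 65.6, 71.8 and 73.9 CPM in AEG-1 KO replicates 1 to 3. The AEG-1 KO values lay inside the WT range, and the log2 fold change was 0.10 (95% interval -0.13 to 0.33; edgeR adjusted p = 0.631). Scap, the escort protein, had 53.3, 50.3 and 41 CPM in WT, against 48.7, 53.8 and 55.1 CPM in AEG-1 KO (log2 fold change 0.12, interval -0.09 to 0.33; edgeR adjusted p = 0.495). WT replicate 3 was the lowest library for both genes. Insig1, which retains SCAP and is itself a sensitive SREBP target, was at 19.6 ± 0.745 CPM in WT, against 19.6 ± 0.457 CPM in AEG-1 KO (SD, n = 3). Its log2 fold change was 0.00 (interval -0.13 to 0.13; edgeR adjusted p = 0.993).

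Of 7 genes from acetyl-CoA to farnesyl diphosphate, the isoprenoid precursor of sterols, none passed the test. Hmgcs1 had 54.3, 53.6 and 59.2 CPM in WT, against 55.3, 57.4 and 54.5 CPM in AEG-1 KO. The AEG-1 KO values lay inside the WT range, with a log2 fold change of 0.00 (interval -0.12 to 0.12; edgeR adjusted p = 0.99). Acat2, the cytosolic thiolase that joins acetyl-CoA units, had the smallest p of this step, with 3.83, 4.67 and 4.28 CPM in WT, against 3.28, 3.94 and 4.31 CPM in AEG-1 KO (log2 fold change -0.15, interval -0.44 to 0.13; edgeR adjusted p = 0.539). Mvk, Pmvk and Mvd, which phosphorylate and decarboxylate mevalonate, had log2 fold changes of -0.09, -0.03 and 0.04. Idi1, the isomerase, and Fdps, farnesyl diphosphate synthase, were at 0.00 and 0.04. The summed level of the 7 genes was 110 to 111 CPM in WT, against 109 to 112 CPM in AEG-1 KO.

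Of 11 genes from farnesyl diphosphate to cholesterol, Sqle rose and 10 did not pass the test. Sqle encodes squalene epoxidase, an oxygen-dependent and rate-limiting enzyme of the sterol branch. It had 20.9, 22.3 and 21.2 CPM in WT replicates 1 to 3 and 27.4, 29.1 and 26.8 CPM in AEG-1 KO replicates 1 to 3. Every AEG-1 KO library stood above every WT library. The mean rose from 21.4 ± 0.773 to 27.8 ± 1.18 CPM (SD, n = 3), which is 1.29-fold (95% interval 1.18 to 1.42), with a log2 fold change of 0.37 ± 0.06 (SE; edgeR adjusted p = 0.00611). The rise is larger than the spread between replicates, and without each library in turn the edgeR adjusted p was 0.0131 to 0.0439.

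The enzymes directly before and after Sqle gave smaller values of the opposite sign, neither past the test. Fdft1, squalene synthase, went from 11.6 ± 0.925 to 10.7 ± 0.866 CPM (log2 fold change -0.12, interval -0.32 to 0.07; edgeR adjusted p = 0.472). Lss, which closes the ring to lanosterol, had 16.7, 17.1 and 17.7 CPM in WT, against 15.8, 15.8 and 16.2 CPM in AEG-1 KO (log2 fold change -0.11, interval -0.24 to 0.02; edgeR adjusted p = 0.313). Differences between these fold changes were not tested. Cyp51, the lanosterol demethylase, had 17.1, 17.4 and 17.4 CPM in WT, against 19.9, 19.1 and 18.2 CPM in AEG-1 KO (log2 fold change 0.14, interval 0.01 to 0.27; edgeR adjusted p = 0.207). Ebp, the sterol isomerase and the most abundant gene of this step per kb, had 25.2, 27 and 27.1 CPM in WT, against 27.5, 26.5 and 27.5 CPM in AEG-1 KO, with overlapping groups (log2 fold change 0.04, interval -0.08 to 0.16; edgeR adjusted p = 0.714). Msmo1, Hsd17b7, Nsdhl, Sc5d, Dhcr7 and Tm7sf2, which remove methyl groups or adjust double bonds of the sterol, gave, in this order, 0.10, 0.11, -0.05, -0.09, -0.06 and -0.10 as log2 fold change (edgeR adjusted p from 0.288 to 0.768).

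Sqle lies on chromosome 15 (GRCm38, 59315077 to 59331192, plus strand), 25.2 Mb from the targeted gene Mtdh, and no annotated exon of another gene overlaps its exons. Of 544 tested genes of chromosome 15, 61 were called (11.2%). Of the 477 that lie more than 20 Mb from Mtdh, as Sqle does, 35 (7.34%) were called, 19 higher and 16 lower. That share was near the 6.35% over all genes tested. The remaining genes of the chromosome, nearer to Mtdh, therefore held a larger called share. Within 5 Mb of Sqle, 6 of 40 other tested genes (15%) were called, 3 higher and 3 lower. The nearest of these was Mtss1, a membrane-bending protein gene 0.374 Mb away, which rose from 75.6 to 105 CPM (log2 fold change 0.48, edgeR adjusted p = 0.0012). Position relative to Mtdh and genotype cannot be told apart in this design. Srebf2 and Dgat1 are on chromosome 15 too, 48.1 and 42.4 Mb from Mtdh, and did not pass the test.

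**Figure D3:**
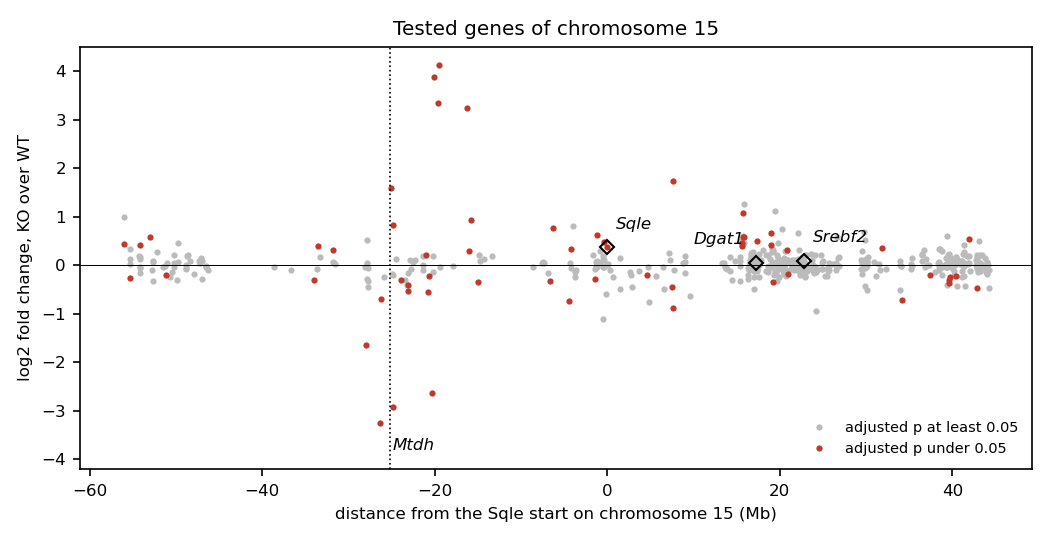
Log2 ratio of AEG-1 KO to WT for tested chromosome 15 genes against the distance in Mb of their start from that of Sqle. Called genes are red, the 3 described genes are open diamonds and the place of Mtdh is a dotted line; Mtdh itself, at -9.37, is not drawn. Sqle sits at 0.37, 25.2 Mb from Mtdh, among red and grey points of both signs.

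Neither of the 2 sterol handling genes passed the test. Stard4, a soluble cholesterol carrier, had 23.1, 23.4 and 27 CPM in WT, against 23.8, 25.6 and 22 CPM in AEG-1 KO (log2 fold change -0.04, interval -0.22 to 0.14; edgeR adjusted p = 0.819). Tmem97, an endoplasmic reticulum protein that is induced when sterols are low, had 8.17, 8.29 and 7.82 CPM in WT, against 8.19, 8.64 and 7.59 CPM in AEG-1 KO. Its log2 fold change was 0.01 (interval -0.17 to 0.18; edgeR adjusted p = 0.977). The groups overlapped for both genes.

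In the 5 genes that supply acetyl-CoA, malonyl-CoA, NADPH and palmitate, every log2 fold change was below 0, also under each other scaling, and none passed the test; 1 had an unadjusted p under 0.05. Acss2, which makes acetyl-CoA from acetate, had 9.06, 10.6 and 10.8 CPM in WT, against 8.14, 7.77 and 8.37 CPM in AEG-1 KO. All AEG-1 KO libraries stood below all WT libraries, and the log2 fold change was -0.33 ± 0.09 (SE; interval -0.53 to -0.14), just outside the threshold (edgeR adjusted p = 0.0572). DESeq2 and the edgeR exact test called it (adjusted p = 0.0352 and 0.021), as did the edgeR fit without WT replicate 1 (adjusted p = 0.0182). Without each of the other libraries it was not called (edgeR adjusted p = 0.103 to 0.209). Acly had 232, 237 and 233 CPM in WT, against 226, 227 and 226 CPM in AEG-1 KO, groups that did not overlap but differed by a log2 fold change of -0.05 (interval -0.13 to 0.04; edgeR adjusted p = 0.508). Acaca, acetyl-CoA carboxylase, and Fasn, fatty acid synthase, had log2 fold changes of -0.05 and -0.10, and Me1, the cytosolic malic enzyme that yields NADPH, -0.09. The 5 genes summed to 337 to 342 CPM in WT, against 323 to 324 CPM in AEG-1 KO, most of it from Acly.

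None of the 7 desaturases and elongases passed the test. Scd2 was far more abundant than Scd1 in these cells, at 31.5 ± 1.31 against 1.81 ± 0.0617 CPM per kb in WT (SD, n = 3). Scd1 had 8.53, 9.13 and 8.88 CPM in WT, against 9.23, 10.4 and 9.68 CPM in AEG-1 KO. Scd2 had 165, 179 and 173 CPM in WT, against 180, 188 and 185 CPM in AEG-1 KO. For both desaturases every AEG-1 KO library lay above every WT library, but the log2 fold change, 0.14 for Scd1 and 0.10 for Scd2, did not pass the test (edgeR adjusted p = 0.314 and 0.255). Transcripts of Scd1 and Scd2 share a stretch of 623 bases at 95% identity or more, so reads from that stretch may be split between them and their values are uncertain.

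Elovl1 had 152, 162 and 142 CPM in WT, against 147, 138 and 151 CPM in AEG-1 KO, with overlapping groups (log2 fold change -0.07, interval -0.19 to 0.06; edgeR adjusted p = 0.566). Elovl6, which lengthens palmitate to stearate, had the smallest p of the step. It was at 4.34, 4.07 and 4.35 CPM in WT, against 4.84, 5 and 4.73 CPM in AEG-1 KO (log2 fold change 0.19, interval 0.00 to 0.39; edgeR adjusted p = 0.241). The groups did not overlap for Elovl6. Fads1 and Elovl5 had log2 fold changes of 0.11 and 0.01. Fads2, at 0.33 ± 0.0787 CPM in WT, against 0.304 ± 0.103 CPM in AEG-1 KO, was too low for a narrow interval.

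The 4 genes of glycerolipid assembly did not pass the test either. Dgat1, which adds the last acyl chain of a triglyceride, had 17.7, 16.2 and 16.7 CPM in WT, against 16, 17.3 and 19 CPM in AEG-1 KO (log2 fold change 0.05, interval -0.12 to 0.22; edgeR adjusted p = 0.745). Dgat2, the other enzyme of that step, was at 1.61 ± 0.152 CPM in WT, against 1.73 ± 0.196 CPM in AEG-1 KO. Gpam, the mitochondrial acyltransferase that starts the pathway, had 13, 13.1 and 14.7 CPM in WT, against 13, 13.9 and 12.3 CPM in AEG-1 KO (log2 fold change -0.05, interval -0.23 to 0.12; edgeR adjusted p = 0.745). Lpin1, a phosphatidate phosphatase, had a log2 fold change of 0.01 (interval -0.13 to 0.14). Groups overlapped for all 4 genes.

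Within a genotype, several of the genes deviated together. WT replicate 1 exceeded WT replicate 3 by a log2 ratio of 0.57 in Mvk, 0.45 in Srebf2, 0.39 in Mvd and 0.38 in Scap, while Sc5d and Me1 were lower by a log2 ratio of -0.29. The genes that were high in WT replicate 1 were rich in G and C. Across the 39 genes, the GC content of the longest transcript correlated with this ratio at a Pearson's r of 0.75, and the ratio of AEG-1 KO replicate 3 to replicate 1 gave 0.56. Over 13262 tested genes that averaged 1 CPM or more and matched the annotation, which gives the GC content, the values were 0.60 and 0.46. The points share the same libraries, and these library pairs were chosen after the values were seen. Sqle, with a GC content of 48.6%, had log2 ratios of -0.02 and -0.03 between these pairs. With a smooth trend of each library on length and GC content removed, the log2 fold change was 0.08 for Srebf2 (edgeR adjusted p = 0.286), 0.09 for Scap (edgeR adjusted p = 0.206), 0.35 for Sqle (edgeR adjusted p = 0.00124) and -0.34 for Acss2 (edgeR adjusted p = 0.0188). In that fit, which was added after the data were seen, Sqle and Acss2 were called.

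**Figure D4:**
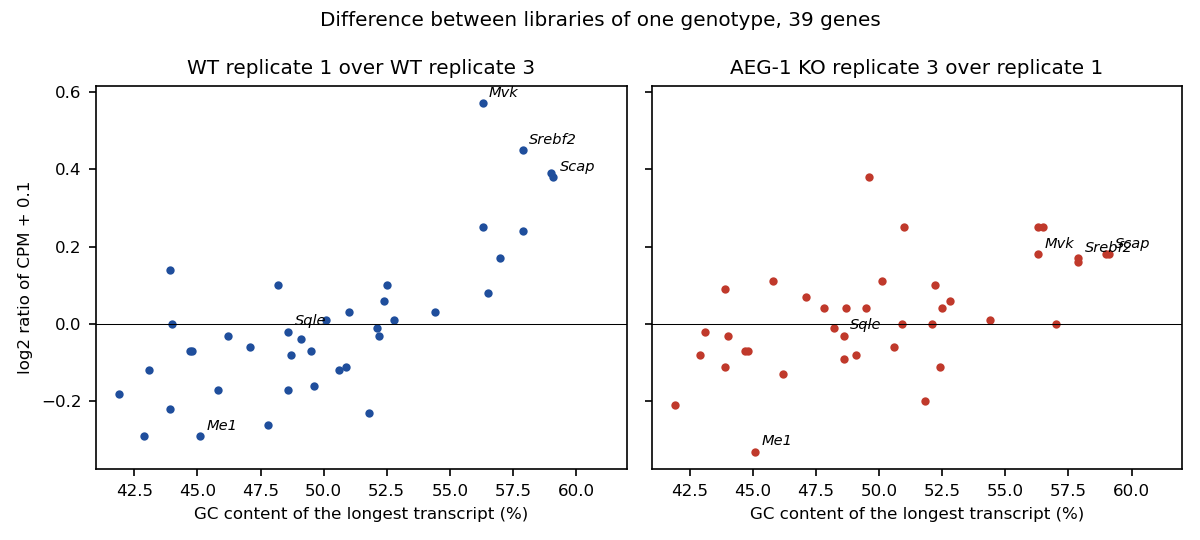
Log2 ratio of CPM + 0.1 between libraries of the same genotype, against the GC content in percent of each gene's longest transcript, for the 39 genes (left, WT replicate 1 over 3; right, AEG-1 KO replicate 3 over 1). Mvk, at 0.57, and Srebf2, at 0.45, top the left panel at the GC-rich end, and Sqle lies near 0 in both.

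Some of these values are uncertain because of what lies over or resembles the gene. Whether counting used strand is not given in the sources used here. The antisense strand of Fdft1 holds 774 exon bases of Ctsb, a cathepsin gene at 10577 ± 410 CPM in WT that was itself called higher in AEG-1 KO. Exons of Hmgcs1, Scap, Acss2, Lss, Idi1, Cyp51, Elovl1, Elovl6 and Me1 overlap another gene on the opposite strand as well. Fdps shares 1124 of its 4208 exon bases with Gm43738 on the same strand, and Tm7sf2 shares 532 with Vps51. Fdps also has 7 near-identical relatives. Its processed pseudogene Gm3571 was counted at 9.14 ± 0.73 CPM in WT, above the 2.96 ± 0.142 CPM counted for Fdps itself, so the low place of Fdps among the 39 is uncertain. Acat2 shares 1477 bases with Acat3 and 445 with Tcp1. Tcp1 was at 205 ± 8.81 CPM in WT, far above the 4.26 ± 0.42 CPM of Acat2. Idi1, Fdft1, Tmem97, Acaca, Me1 and Elovl6 resemble processed pseudogenes over more than 400 bases.

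The other genes of the pathway came from a list of 97 genes that surround the described ones, of which 84 passed the filter, 7 were called higher, 5 lower and 72 not called. The called share was 14.3%, beside 6.35% of all genes tested. Among the 13291 tested genes that averaged 1 CPM or more, 507 were called higher and 474 lower. Neither set was matched in level to the list. The called shares here and in the parts of the list below therefore do not show more calls than among genes of like level. None of the 17 further genes of SREBP control was called by edgeR, DESeq2, limma-voom or the exact test, and 2 had an unadjusted p under 0.05 in edgeR. Their median log2 fold change was 0.04. The smallest p there belonged to Mbtps2, a protease that releases SREBP in the Golgi, and Insig2, with log2 fold changes of 0.14 each (intervals 0.03 to 0.26 and 0.02 to 0.26; edgeR adjusted p = 0.139 and 0.154). Rnf139 and Pgrmc1 had log2 fold changes of 0.10 and 0.11 and were not called. Mbtps2 shares 2867 exon bases with Yy2 on the same strand. Exons of Rnf139 overlap Tatdn1 over 1140 bases on the other strand, so the values of Mbtps2 and Rnf139 are uncertain.

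Among 27 tested genes of other sterol and isoprenoid steps, uptake and esterification, 5 rose and 2 fell, a called share of 25.9%, with a median log2 fold change of -0.01 over the list. Nceh1, a hydrolase of cholesteryl esters in macrophages, had 258, 266 and 267 CPM in WT, against 335, 348 and 334 CPM in AEG-1 KO (log2 fold change 0.36 ± 0.04 SE, edgeR adjusted p = 0.000996). Soat1, the enzyme that forms cholesteryl esters in macrophages, rose from 389 ± 6.87 to 458 ± 18.9 CPM (SD, n = 3; edgeR adjusted p = 0.0129). Its relative Soat2, on chromosome 15 and much less abundant, dropped to 4.13 ± 0.138 CPM from 5.7 ± 0.0725 CPM (edgeR adjusted p = 0.0123). Stard5, a sterol-binding carrier, dropped to 99.8 ± 0.847 CPM from 122 ± 4.38 CPM (edgeR adjusted p = 0.00476). The other 3 that rose, named after their values were seen, were Npc1 and Npc2, which move cholesterol out of lysosomes, and Mylip, which degrades lipoprotein receptors, with a log2 fold change of 0.17 for Npc1, 0.15 for Npc2 and 0.19 for Mylip (edgeR adjusted p = 0.027, 0.0471 and 0.0359). Soat1 and Soat2 lost their calls without WT replicate 2 (edgeR adjusted p = 0.0629 and 0.062) and when AEG-1 KO replicate 2 was left out (0.0988 and 0.0649). Npc1 and Npc2 lost theirs without any 1 of the 6 libraries (edgeR adjusted p = 0.0539 to 0.148), and Mylip in 5 of the 6 such fits (edgeR adjusted p = 0.0565 to 0.168).

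Among 34 tested genes of other fatty acid and glycerolipid steps, 1 rose and 3 fell, a called share of 11.8%, with a list median of -0.05. Mecr, an enoyl reductase of mitochondrial fatty acid synthesis, had 26.9, 25.1 and 24.6 CPM in WT, against 18.8, 18.5 and 19.8 CPM in AEG-1 KO (log2 fold change -0.42 ± 0.06 SE, edgeR adjusted p = 0.00371). Hacd2 and Hacd4 belong to the dehydratase family of chain elongation and moved in opposite directions. Hacd2 dropped to 27.2 ± 0.844 CPM from 34.3 ± 1.18 CPM (edgeR adjusted p = 0.00672), whereas Hacd4 rose from 114 ± 5.56 to 142 ± 5.04 CPM (edgeR adjusted p = 0.00569). Acsl5, which activates fatty acids as CoA esters, dropped to 246 ± 7.19 CPM from 294 ± 5.9 CPM (edgeR adjusted p = 0.00644). Of 6 tested genes of NADPH supply, G6pdx, the entry enzyme of the pentose phosphate pathway, rose from 240 ± 8.84 to 272 ± 3.01 CPM (edgeR adjusted p = 0.0371). It lost its call without any 1 of the libraries (edgeR adjusted p = 0.0598 to 0.17). The other 3 NADPH genes with the smallest p, Taldo1, Idh1 and Tkt, had log2 fold changes of 0.11, 0.12 and -0.09 and were not called. Exons of Stard5, Npc1, Hacd2, Hacd4, Acsl5 and G6pdx overlap a gene on the other strand, so their values are uncertain. The summed levels of monocyte, neutrophil and stromal markers were higher, and those of osteoclast and endothelial markers lower, in the same AEG-1 KO libraries, as given above. Not every marker followed the sum of its list. Of 5 tested osteoclast markers, 2 were called higher and 2 lower. Most of the endothelial sum was Pecam1 (74.8 CPM in WT, 60.1 CPM in AEG-1 KO), and most of the osteoclast sum Acp5 (131 and 102 CPM). Irf8 made up most of the monocyte and progenitor sum (131 and 148 CPM). Csf3r was the largest part of the neutrophil sum (243 and 256 CPM). Neither Irf8 nor Csf3r was called. Mmp9, called lower, is counted in both the neutrophil and the osteoclast list. Of the 5 tested endothelial markers, 3 had a log2 fold change above 0 and 2 below.

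**Figure D5:**
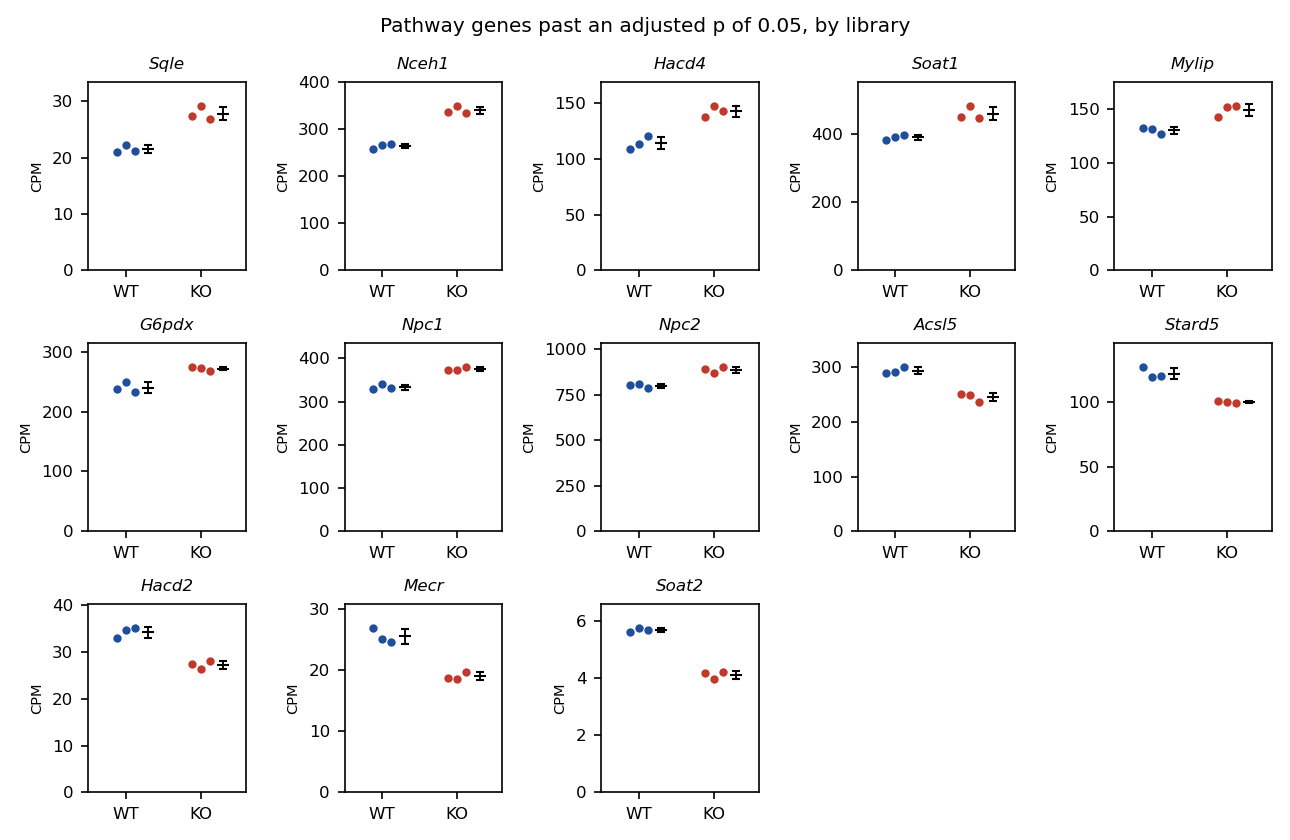
CPM in each library (points) with the group mean and SD (bar, n = 3) for Sqle and the 12 called genes around the pathway, in WT (blue) and AEG-1 KO (red), ordered by log2 fold change from 0.37 for Sqle to -0.46 for Soat2, with axes from 0. Groups do not overlap in any of the 13 panels.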

How the data were processed

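Total RNA of 6 samples, 3 per genotype, was made into TruSeq libraries and read on an Illumina HiSeq3000, per the labels' protocols. The authors deposited raw read counts per Ensembl gene. The tools listed, without their roles, are featureCounts 1.4.6-p4, Subread, edgeR 3.18.1, cutadapt 1.9 and FastQC 0.11.2, with GRCm38 and mm10 as builds, per the submitters' processing notes. Neither the annotation nor the strand setting nor the handling of multi-mapping reads is given in the sources used here.

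Of 46983 identifiers 46488 matched GENCODE M21. Genes passing filterByExpr (minimum count 10), 16115 in all, entered the quasi-likelihood test of edgeR 4.0.16 (R 4.3.3, TMM factors), with Benjamini-Hochberg adjustment over all of them. SE was taken as the size of the log2 fold change divided by the root of F, and 95% intervals use the fit's degrees of freedom. Exon length is the union of annotated exons, which places genes with long rare isoforms too low per kb. Alternatives were RLE, upper-quartile and no scaling, no filter and a minimum count of 50, DESeq2 1.42.0, limma-voom 3.58.1, the exact test, legacy and robust fits, the replicate number as a block, a threshold of 0.01, and leaving out each library. A length and GC trend (mgcv 1.9.3) was added after the data were seen. Near-identical copies were sought with BLAST+ 2.17.0 (95% identity, at least 100 bases). The fit was tested on simulated data.

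The genes and lists were chosen with earlier results of these data known. All 39 genes are named. Values per library are given for those of the 39 that were called, Sqle and the most abundant gene per kb of each role. They are also given for the uncalled gene with the smallest p of each role without a call. Values per library of Lss, Cyp51, Scd1 and Scd2 are given outside this rule. Of the related lists, the 4 genes with the smallest p in each are named. Other named genes were chosen after their values were seen. Libraries of one genotype differed by more than counting noise (chi-square per degree of freedom 5.58 to 19.3) and were each counted as 1 sample, which does not show that they came from separate animals. No protein table was used here.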

Additional observations from a re-analysis of the deposited data

How the results depend on the processing

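The call of Sqle held under every alternative run except the replicate block (log2 fold changes 0.33 to 0.40). The replicate number as a block gave 227 called genes in all, 0 of the 39 and an edgeR adjusted p of 0.0607 for Sqle. Deviations from the group mean in libraries that share a number gave r = -0.2738, -0.1731 and -0.2511 for numbers 1 to 3. None correlated best with its own number. Such deviations sum to 0 within each genotype, which constrains these few values, so they cannot decide whether the numbers pair the samples. Calls among the 39 numbered 2, Sqle and Acss2, with DESeq2, the exact test and the length and GC trend removed, and 1 to 2 without each library. All genes called, 1023 as reported, were 393 at an adjusted p under 0.01, 2326 with the length and GC trend removed and 380 to 1094 without each library (441 without WT replicate 2, 667, 380 and 606 without AEG-1 KO replicates 1, 2 and 3). The median log2 fold change of the 39 was -0.03 to 0.00 without each library. Of the 38 uncalled genes, 16 changed sign in some setting, all at 0.10 or less in absolute log2 fold change as reported, and 1, Acss2, was called in some setting. Under the block all 12 called surrounding genes other than Nceh1 lost their calls, and Npc2 lost its call under RLE and upper-quartile scaling (edgeR adjusted p = 0.0573 and 0.0618). For Fads2, at 11 reads or more per library, depth limits what can be seen.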
